A study of Bos taurus with 2 samples.

Results

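The miR-99, miR-100, miR-125 and miR-10 miRNAs were followed in 2 fractions of cow's milk whey. The bovine miRNA microarray was searched for bta-miR-99a, bta-miR-99b, bta-miR-100, bta-miR-125a, bta-miR-125b, bta-miR-10a and bta-miR-10b, in either arm, and let-7 miRNAs were left out. The prefix bta, for Bos taurus, is dropped from here on. The search found 8 array entries among 670 miRNAs, since miR-99a was present as its main arm and as miR-99a*, the opposite strand of the same hairpin. Raw milk whey of Holstein cows was spun at 10000 g for 90 min at 4 °C. That force is as labelled and is in doubt, because the labels call the step ultracentrifugation, and with it what the pellet contains. The pellet was resuspended in buffer and spun again in 2 wash steps, and is the fraction the labels call exosome, meaning small membrane vesicles released by cells. The liquid left above the first pellet is the supernatant fraction. RNA of 3 raw milk samples was pooled in equal amounts for each fraction, and 40 ng was labelled with the dye Cy3, so that each fraction was measured on 1 array. The age and lactation stage of the cows are not given in the sources used here.

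With 1 array per fraction there was no replicate check on any difference, and no test between the fractions was run. The ± values are SDs between spots of the same array and cover technical spread only. For a signal averaged over probes, the ± is the root mean square of the SDs within probes. It leaves out the gap between the probes. An array of bulk RNA cannot tell fewer vesicles from less of a miRNA in each vesicle. Vesicle proteins were not measured, so the fraction names rest on the labels. Of 6 miRNAs typical of mammary epithelium, the exosome array detected 5 and the supernatant array 2, where 9.85% and 12.7% of all 670 miRNAs were detected. None of 6 endothelial and mesenchymal miRNAs was detected on either array. Of 5 leukocyte miRNAs on the array, 0 were detected in exosome and 1 (miR-223) in supernatant, and of 3 erythroid miRNAs 0 and 1 (miR-486).

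miRNAs are short RNAs that guide silencing proteins to messenger RNAs, mainly through the seed, a stretch near their 5′ end. miR-10, miR-99 and miR-100 are ancient relatives with similar sequences, and miR-125 is the vertebrate form of lin-4, the first miRNA found in the nematode. In many animals a miR-99 or miR-100 gene, a let-7 gene and a miR-125 gene lie in a row and can be transcribed together. The miR-10 genes sit inside the HOX clusters, which set position along the body axis. miR-99 and miR-100 are known to repress mTOR, a growth kinase, and miR-125 is known for timing developmental transitions.

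Each of the 8 miRNAs was read by 2 probes of 30 spots each. The probes are complementary to the miRNA, and both probes of a miRNA begin at the same base. They are shown because the probes of a pair, which differ only in their last base, gave very different signals for the detected miRNAs. The longer probe is printed 5′ to 3′, and the capital marks the single base that the shorter probe lacks.
miR-99a: acaagatcggatctacgG
miR-100: cacaagttcggatctacgG
miR-10a: cacaaattcggatctacaggG
miR-10b: cacaaattcggttctacaggG
miR-99b: cgcaaggtcggttctA
miR-125b: tcacaagttagggtctC
miR-125a: cacaggttaaagggtC
miR-99a*: acccatagaagcgagC

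The probes of some relatives differ in a single base. Over an overlap of 18 bases the longer miR-99a and miR-100 probes differ by A6T, with the miR-99a probe's base first and positions counted from its 5′ end. Over 21 bases the longer miR-10a and miR-10b probes differ by A12T, counted the same way with miR-10a first. The RNA stretches that these probes read, obtained as their reverse complement, are shown 5′ to 3′ with the differing base in capitals.
miR-99a: ccguagauccgaUcuugu
miR-100: ccguagauccgaAcuugug
miR-10a: cccuguagaUccgaauuugug
miR-10b: cccuguagaAccgaauuugug
The longest stretch common to the first 3, guagauccga, is in the RNA read by the longest probe for 3 of the 670 miRNAs (0.448%), namely miR-99a, miR-100 and miR-10a. For miR-10b and miR-99b the longest common stretch is uagaaccga, which is read for these 2 of 670 (0.299%). Only the strand read was searched. Compared without gaps, and with at most 2 bases hanging over, no longer probe of this group came within 2 mismatches of the longest probe of a miRNA outside it. Signal shared between miR-99a and miR-100 was not tested.

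The genes lie in the grouping known from other vertebrates. In HGSC Btau_3.1, the build of the array design, the longer miR-99a probe lies at chr1:20136979-20136995 on the minus strand. The let-7c probe lies 710 bases from it, and a miR-125b site lies a further stretch away at chr1:20087130-20087146, with 49832 bases between miR-99a and miR-125b. The miR-125b probe has a second site at chr15:31406359-31406375, on the minus strand like the first, in a row with let-7a and with miR-100 at chr15:31460967-31460984. The array therefore cannot say which of the miR-125b genes gave its signal. The remaining row, on the plus strand of chromosome 18, holds miR-99b at chr18:57588010-57588024 and miR-125a at chr18:57588686-57588700, with let-7e between them. miR-10a lies at chr19:39116907-39116926 and miR-10b at chr2:21426215-21426234. For all members but miR-125b the placed interval falls short of the probe's length by 1 base, which leaves each of those positions uncertain by that much.

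The RefSeq gene table of ARS-UCD2.0, used only for names and neighbours because its build differs, holds a gene for each of these miRNAs. In it the miR-99a gene and the miR-125b gene of chromosome 1 overlap the same long noncoding RNA gene. The miR-125b gene of chromosome 15 overlaps a pair of long noncoding RNA genes, and miR-100 and miR-99b overlap no listed gene. miR-125a overlaps SPACA6, a protein-coding gene with a role in sperm. miR-10a overlaps HOXB3 and miR-10b overlaps HOXD4. The table gives whole gene spans, so whether these places are exonic or intronic is not given here.

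The comparison asked how bright these miRNAs were in RNA of the pellet and in RNA of the liquid left above it. Each array took 40 ng of RNA, so a signal is relative to RNA mass. How the total amount of a miRNA was divided between the fractions cannot be read from it. Detection was read from flags that the scanner software set for each spot. A probe counted as detected when the flag well above background was set on 50% or more of its spots, and 1 such probe was enough for its miRNA. For miRNA spots this flag acted as a brightness limit: the dimmest spot that carried it read 17.7 in exosome and 18.6 in supernatant. By this rule 2 of the 8 miRNAs, miR-99a and miR-125b, were detected on the exosome array (25%), against 9.85% of all 670 miRNAs. On the supernatant array 0 of 8 were detected, against 12.7% of all. Detection on the exosome array only applied to the same 2 of 8, against 5.37% of all miRNAs.

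miR-125b gave the clearest signal of the group. On the exosome array the 30 spots of its longer probe ran from 53.0 over a median of 67.2 to 83.1, with a mean of 67.9 ± 7.28. On the supernatant array the same probe ran from 3.70 over 9.82 to 16.3, with a mean of 9.39 ± 3.33. Every exosome spot was brighter than every supernatant spot, and the spot values did not overlap. How many of all probes on the array did the same was not counted. Since the flag acted as a brightness limit, the lack of overlap nearly repeats the flag counts that follow. All 30 exosome spots and 0 of 30 supernatant spots were well above background. The supernatant side therefore has only a bound. Against the dimmest probe detected on that array, which read 18.8, the longer miR-125b probe was at least 3.61-fold higher in exosome before any scaling.

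miR-99a showed the same order with a smaller gap. The 29 exosome spots of its longer probe that were no outliers ran from 25.1 over 34.7 to 39.6, with a mean of 34.3 ± 3.46. The 30 supernatant spots ran from 5.81 over 13.6 to 21.8, with a mean of 14.2 ± 4.10. Again the spot values of the arrays did not overlap, which was not counted over all probes. All 29 exosome spots were well above background, and so were 5 of the 30 supernatant spots, short of the share that counts as detected. The bound for the longer miR-99a probe before scaling was at least 1.82-fold higher in exosome, and its measured means stood at 2.42-fold.

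**Figure D1:**
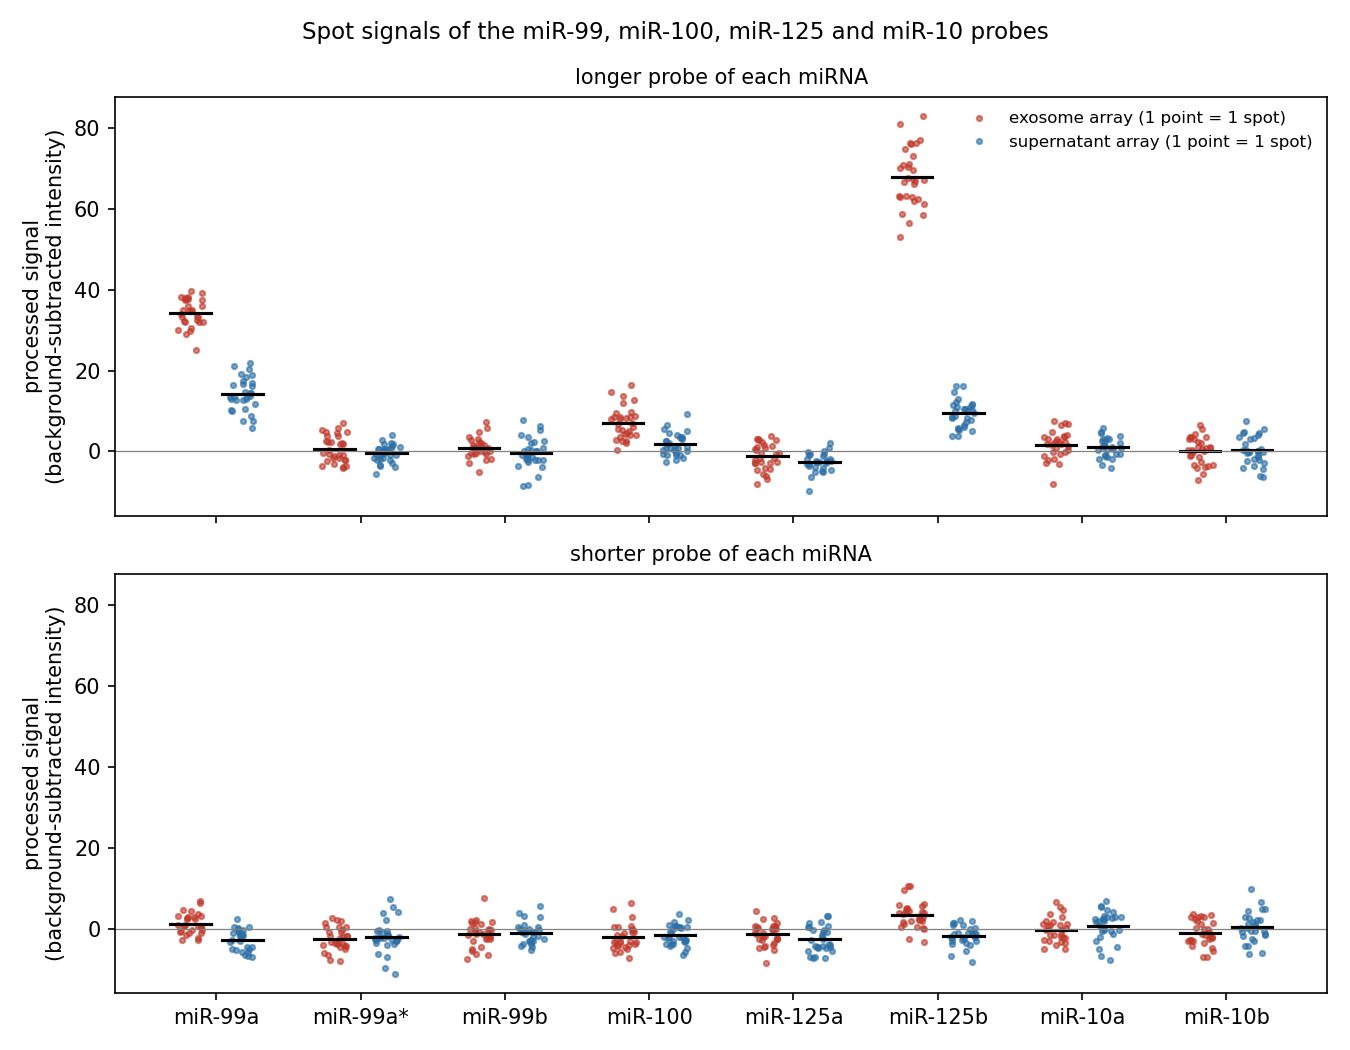
Processed signal (background-subtracted intensity, linear axis) of every spot that was no outlier, for the longer probe (top) and the shorter probe (bottom) of the 8 miRNAs, with exosome spots in red, supernatant spots in blue and the mean as a black line. On the exosome array every spot of the longer probes of miR-125b (mean 67.9) and miR-99a (34.3) lies above every spot of the other probes, and the shorter probes of both lie near 0.

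The shorter probes, which lack 1 base, carried almost none of this signal. The shorter miR-125b probe read 3.43 ± 3.26 in exosome and -1.77 ± 2.42 in supernatant. The shorter miR-99a probe read 1.29 ± 2.58 and -2.67 ± 2.55. Neither had a spot well above background on either array, so each detection rests on 1 probe. The missing last base is a G for miR-99a and a C for miR-125b. Among all miRNAs detected on the exosome array, 62 had a pair of probes 1 base apart, and only the longer of the pair was detected for 27 of them (43.5%). On the supernatant array the same held for 10 of 80 (12.5%).

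miR-100, which differs from miR-99a by the single base shown above, was not detected. Its longer probe read 7.13 ± 3.94 in exosome, from 0.44 over 6.90 to 16.4, and 1.76 ± 2.73 in supernatant, from -2.58 over 0.98 to 9.23. The spot values overlapped: 7 of the 30 exosome spots lay above all supernatant spots. Its shorter probe read -2.04 ± 3.15 and -1.61 ± 2.41. The exosome mean lay within the range of the array's negative control probes, whose means ran from 1.93 to 7.36 over the 7 control probe types of that array.

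The miR-10 pair gave no signal above background. The longer miR-10a probe, from the HOXB cluster, read 1.70 ± 3.38 in exosome and 0.996 ± 2.48 in supernatant. The longer miR-10b probe, from the HOXD cluster, read 0.17 ± 3.33 and 0.25 ± 3.52. The spot values of the arrays overlapped for both, and 0 spots of either were well above background. The other HOX-cluster miRNAs listed, miR-196a, miR-196b and miR-615, were detected on 0 arrays. Of all miRNAs, 9.85% were detected in exosome and 12.7% in supernatant. Averaged over their probes, the exosome signals of these 3 were 5.62 ± 3.51, 0.58 ± 2.90 and -2.93 ± 2.33.

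The members of the chromosome 18 row were also dark. The longer miR-99b probe read 0.89 ± 2.58 in exosome and -0.42 ± 3.78 in supernatant. The longer miR-125a probe read -1.23 ± 3.26 and -2.68 ± 2.36. The opposite strand miR-99a* read 0.71 ± 3.28 and -0.44 ± 2.15, while its partner strand miR-99a was detected in exosome. The 12 probes of the 6 undetected miRNAs averaged between -2.42 and 7.13 in exosome and between -2.68 and 1.76 in supernatant. A miRNA below this limit may still have been present, and the depth of an array cannot be stated as a count.

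A weaker flag, positive and significant, marks spots that the software's test found brighter than background. On it the supernatant values of miR-99a and miR-125b stood out from their relatives. The longer miR-99a probe was positive in 30 of 30 supernatant spots and the longer miR-125b probe in 29 of 30. Of the other longer probes on that array, miR-100 and miR-10b led with 6 of 30 spots each. On the exosome array the longer miR-100 probe was positive in 24 of 30 spots (80.0%).

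That flag was also set on most negative control spots, so it has to be read against them. On the exosome array 63.2% of 981 negative control spots were positive and significant, and 57.7% of 976 on the supernatant array. By control probe type the share reached 88.7% in exosome, above the share of miR-100, and 87.0% in supernatant, below those of miR-99a and miR-125b. The highest mean of a control type on the supernatant array was 7.35, against 14.2 for miR-99a and 9.39 for miR-125b. None of these control spots was well above background. By the weaker flag 3 of the 8 miRNAs (37.5%) were called in exosome, miR-100 being the addition, against 26.3% of all miRNAs. In supernatant it was 2 of 8 (25%), close to the 27% of all miRNAs.

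**Figure D2:**
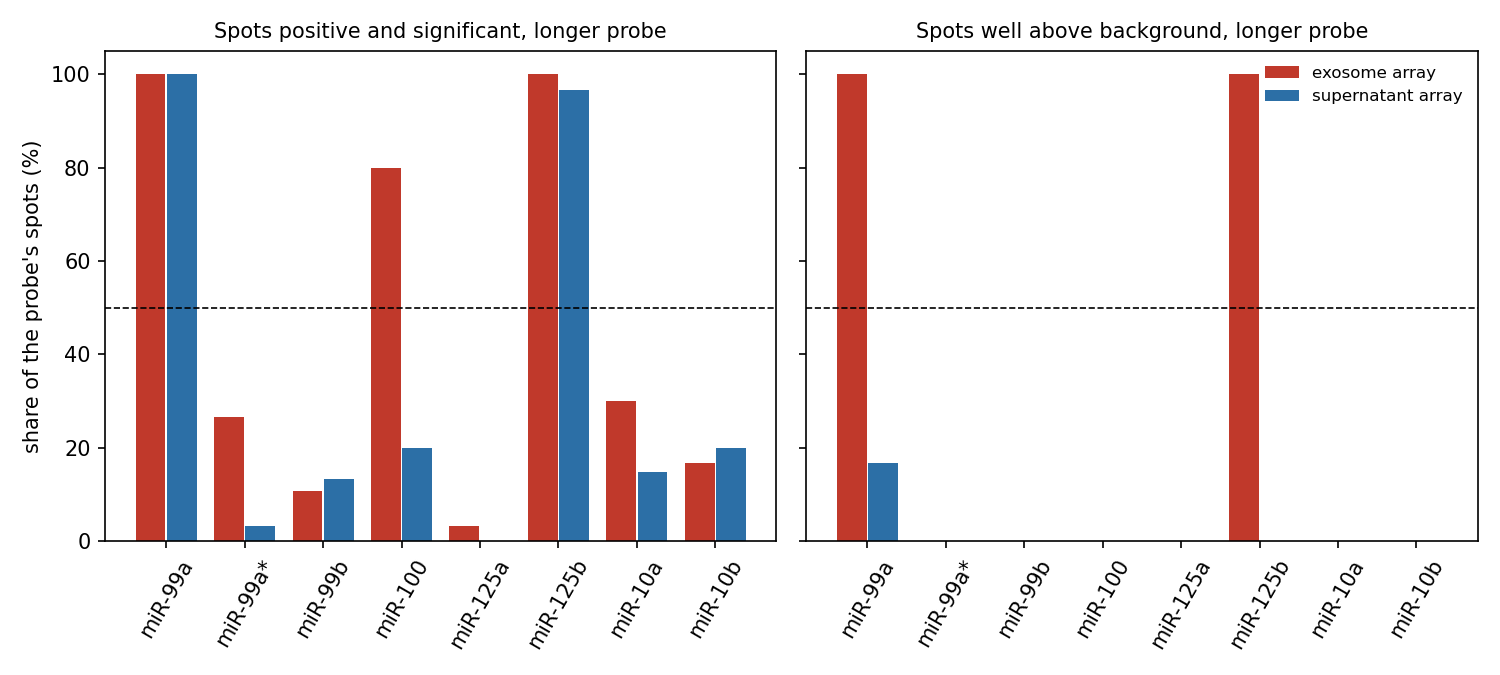
Share of spots (%) of the longer probe that were positive and significant (left) or well above background (right) for the 8 miRNAs, with the exosome array in red and the supernatant array in blue; the dashed line is the 50% needed for detection. On the right only miR-99a and miR-125b reach the line, and only in exosome, while on the left both reach it on both arrays and miR-100 reaches 80.0% in exosome.

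The authors' deposited value table gave miR-99a on both arrays, in contrast to the rule above. In it miR-99a had log2 values of 7.18 in exosome and 5.91 in supernatant, a difference of 1.28 or 2.42-fold, the same ratio as that of its longer probe. miR-125b had 8.17 in exosome and is listed at 0 in supernatant. The other 6 miRNAs are listed at 0 on both arrays. By the software's own flag, on which that table rests, 1 of 8 was called in supernatant, against 13.6% of all miRNAs, and 2 of 8 in exosome, against 11.8%.

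How large the exosome excess was, and for miR-99a whether there was one, depended on how the arrays were put on a common scale. Taking the signal of the 53 probes found on both arrays, its 75th percentile was the divisor for each array, 473 in exosome and 15030 in supernatant. This moved every log2 difference up by 4.99. The longer miR-125b probe then had a log2 bound, exosome minus supernatant, of 6.84, and of 1.85 without scaling. For the longer miR-99a probe the bounds were 5.85 and 0.86. The supernatant side of both probes lay below the detection limit, so the differences of the mean signals are given only beside these bounds. They were 7.84 ± 0.53 with scaling and 2.85 ± 0.53 without for miR-125b, and 6.26 ± 0.44 and 1.28 ± 0.44 for miR-99a.

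Spiked control RNAs gave another view. The labelling controls, RNAs added before the dye reaction, were brighter on the exosome array by 1.59 on the log2 scale on average. They differed from each other, with 1.80 for dmr_285 and 1.38 for dmr_31a, and the ± values leave their spread out. Scaled to their average, the longer miR-125b probe had a bound of 1.20-fold higher in exosome, with a difference of the mean signals of 1.27 ± 0.53. With dmr_285 alone the bound would be smaller, since the log2 bound without scaling was 1.85. The longer miR-99a probe had no bound, and its mean signals differed by -0.31 ± 0.44, less than the spread between spots and of the opposite sign. The hybridisation controls, added after labelling, differed by only -0.080, and with them the bounds were 3.81-fold for miR-125b and 1.93-fold for miR-99a. Whether labelling efficiency accounts for part of the exosome excess was not tested.

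Averaged over both probes, a choice made here, the miRNA signals in exosome and supernatant were 35.6 ± 5.64 and 3.81 ± 2.91 for miR-125b. For miR-99a they were 17.8 ± 3.06 and 5.74 ± 3.42. Against the dimmest detected miRNA of the supernatant array, which read 7.04 on this average, miR-125b was 161-fold higher in exosome with scaling and 5.07-fold without. The same calculation gave 80.2-fold and 2.53-fold for miR-99a. Both averaged values of miR-99a exceeded the ratio of mean signals of the only probe that gave signal, 76.9-fold with scaling and 2.42-fold without. They are therefore not safe lower limits, and the bounds of that probe alone were 57.8-fold and 1.82-fold. For miR-125b the bounds of its longer probe alone were 115-fold and 3.61-fold. Its averaged values lie above these and are not safe lower limits either. Of the 36 miRNAs detected on the exosome array only, 29 (80.6%) had an averaged bound of at least 2-fold without scaling. With scaling it was 100%, but the upward shift of 4.99 on the log2 scale fixed that share in advance. By the averaged values without scaling both miR-125b and miR-99a were among the 29. The bound of the longer miR-99a probe without scaling lay below 2-fold.

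**Figure D3:**
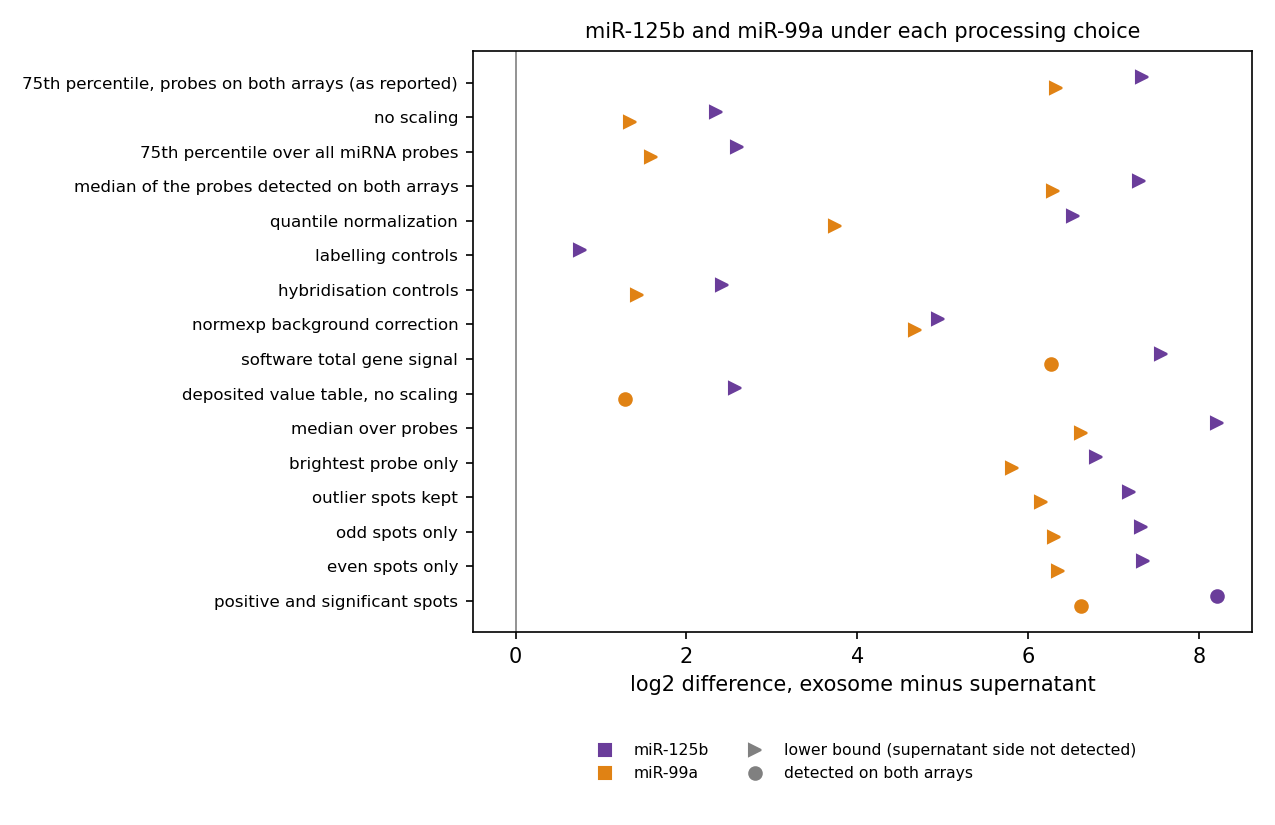
Log2 difference, exosome minus supernatant, of miR-125b (purple) and miR-99a (orange), averaged over both probes unless a row says otherwise, under each processing choice; triangles are lower bounds and circles are values where both arrays counted as detected. miR-125b spans 0.75 to 8.21, and miR-99a has no value in the row of the labelling controls, where its bound fell below 1-fold. Some triangles lie above the difference of the mean signals of the longer probe alone and are not safe lower limits. They include the miR-99a triangles as reported and without scaling, and those of both miRNAs for the median over probes. The miR-125b triangle as reported lies above the bound of its longer probe alone, 6.84.

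The let-7 partners in the same gene rows were compared as the nearest neighbours of these miRNAs. Their signals are averages over both probes unless a probe is named. let-7c, between miR-99a and miR-125b on chromosome 1, read 112 ± 12 in exosome and 5.71 ± 3.25 in supernatant. Its exosome average joins 24.6 for the shorter probe and 199 for the longer. On the supernatant array 27 of 30 spots of its longer probe were positive and 0 were well above background, with a mean of 8.46 ± 3.83. let-7a, the partner of miR-100, read 385 ± 23.9 and 2.32 ± 3.27. The array's let-7a and miR-125b are each made by more than one gene, so neither reports on the chromosome 15 row alone.

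let-7e, the partner of miR-99b and miR-125a, read 11.4 ± 3.34 in exosome and 0.092 ± 2.95 in supernatant, averaged over both probes. Its longer probe was well above background in 5 of 30 exosome spots and positive in 30 of 30, so let-7e was not detected by the rule used here. On the exosome array, where 9.85% of all miRNAs were detected, miR-99a and let-7c of the chromosome 1 row were detected and miR-99a* was not. In the chromosome 15 row let-7a was detected and miR-100 was not. miR-125b was detected and has a site in both rows, so it cannot be assigned to either. In the chromosome 18 row miR-99b, let-7e and miR-125a gave 0 of 3. Signal shared among the let-7 miRNAs was not tested.

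The miRNAs whose brightness on the 2 arrays lay closest to that of a detected member were named by distance on the log2 scale, with dim signals set to each array's lowest detected miRNA. They came from the 119 other miRNAs detected on at least 1 array. For miR-125b these were miR-30b-5p, let-7g and miR-26b, at distances of 0.024, 0.15 and 0.25. For miR-99a they were miR-2284l, miR-331 and miR-25, at distances of 0.0036, 0.12 and 0.12. All 6 were detected on the exosome array only. With 2 arrays, and the supernatant side of each at the floor, the distance reflects exosome brightness alone, which also depends on the probe.

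The probes of the group were of ordinary composition. GC content of the longer probes ran from 47.1% for miR-125b to 56.3% for miR-99a* and miR-99b, with a median of 50%, equal to that of all 670 miRNAs. The longer probes of the detected miR-99a (18 bases) and miR-125b (17 bases) held 50% and 47.1% GC. The median over the 36 exosome-only miRNAs was 46.9%, and over the 55 supernatant-only miRNAs 71.4%.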

How the data were processed

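Both 1-colour arrays went through Agilent Feature Extraction 10.7.3.1, per the file headers. The deposited scanner columns used are intensities after the software's background subtraction, with no scaling between arrays, so a value below 0 means a spot dimmer than its background. The authors' value table holds log2 values: log2 of the software's total signal for a miRNA over 0.1, within 6.2e-06, and 0 where the software made no call. Spot flags (well above background, positive and significant, outlier) were used as deposited.

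Outlier spots were dropped, 10 of 480 for these miRNAs on the exosome array and 12 of 480 on the supernatant array. No miRNA spot was saturated. Spots were averaged within probes, and probes within miRNAs. The divisor for each array was the 75th percentile over probes detected on both. Where only 1 array detected a miRNA, a lower bound was taken against the other array's dimmest detected signal or the miRNA's own signal there, whichever was higher. All members were named. Members, lists and tests were chosen with earlier results of these data known. Alternatives covered detection, scaling, normexp background correction, probe summary, outliers and spot subsets. Averaging, detection and the differences of miRNAs detected on both arrays were tested on simulated data. There both probes of a miRNA carried the same signal, so lower bounds, scaling and unequal probe pairs were not covered. Mature miRNA sequences were not used here. The software was Python 3.11.15 with numpy 2.4.6, pandas 2.3.3 and matplotlib 3.10.9, and limma 3.58.1 in R 4.3.3.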

Additional observations from a re-analysis of the deposited data

How the results depend on the processing

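No paired analysis was possible because each fraction had 1 array and no test was run. With positive and significant spots, 2 members were detected in supernatant in place of 0, against 27% of all miRNAs. With the software's flag it was 1, against 13.6% of all. With every probe required 0 were detected in exosome, and the share of all miRNAs by that rule was not computed. Of 62 miRNAs detected in exosome with a pair of probes 1 base apart, 34 had both probes detected. The log2 bounds of miR-125b and miR-99a over both probes, 7.33 and 6.33 as reported, depended mainly on the scaling. A ratio under 1-fold gives no bound, so the 15 and 14 alternatives with a value do not show a stable direction. The bounds became 2.34 and 1.34 without scaling, 2.59 and 1.59 with the 75th percentile of all miRNA probes, 6.52 and 3.74 with quantile normalization, and 2.42 and 1.42 with the hybridisation controls. With the labelling controls miR-125b had 0.75 and miR-99a none, since its ratio to the floor was 0.84, or -0.25 on the log2 scale, the opposite sign. Normexp with an offset of 50, which exceeds most of these signals, gave 4.94 and 4.67; the cause was not tested. The value table gave a bound of 2.56 for miR-125b and a difference of 1.28 for miR-99a, which it called on both arrays. The brightest probe gave 6.80 and 5.81. With 2 probes per member the median over probes equals their mean, so for these members only the floor, taken from other miRNAs, changed. The median over probes gave 8.21 and 6.62, and so did positive and significant spots, by which both arrays counted as detected. These exceed the differences of the mean signals of the longer probes, 7.84 and 6.26, and are not safe lower limits. With every probe required neither miRNA had a value. The median of the probes on both arrays, the software's total signal, outlier spots kept and odd or even spots moved the reported 7.33 and 6.33 by less than the spread between spots. The exosome signals of both longer probes, 67.9 and 34.3, lay above the dimmest detected probe of that array, 18.2. Their supernatant signals, 9.39 and 14.2, lay below the dimmest detected probe of the supernatant array, 18.8, which limits the precision of the differences.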

Other observations

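On the exosome array 1 spot of the shorter miR-99b probe read 197 and was well above background, while the 29 spots of that probe that were no outliers averaged -1.28 ± 3.18. The software flagged that spot as an outlier, and no detection call of these miRNAs changed when outlier spots were kept.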
